A study of Mus musculus with 6 samples.

Results

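The genes that run the G1 phase of the cell cycle were followed in the livers of 6 mice, 3 expressing Sonic Hedgehog (SHH) and 3 expressing green fluorescent protein (GFP). The list held 10 genes: the D-type cyclins Ccnd1, Ccnd2 and Ccnd3, the E-type cyclins Ccne1 and Ccne2, the kinases Cdk4 and Cdk6, the inhibitors Cdkn1b and Cdkn2c, and the retinoblastoma gene Rb1. They were chosen by name, with the SHH against GFP differences of these same arrays already known. Their differences are therefore described and not tested. Of the 10 genes, 9 had a probe set of their own, out of 22180 genes measured in that way. The only probe set listed for Ccne2 also names Ints8, so Ccne2 has no value here. Rb1 had 2 probe sets of its own, and the brighter was used.

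All 6 mice were male C57BL/6, and each liver gave 1 array. GFP livers came from mice 13, 21 and 6, and SHH livers from mice 26, 28 and 31. DNA was delivered by hydrodynamic transfection, a fast injection of a large volume that carries DNA mainly into hepatocytes, and the GFP livers serve as the transfected control. Age, time after injection, the promoter and the share of cells that took up the DNA are unknown here. The question was how Hedgehog ligand in the liver bears on fibrosis and gene expression.

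Cyclins of the D type are made when growth signals reach a resting cell. They bind the kinases encoded by Cdk4 and Cdk6, and the complexes phosphorylate the retinoblastoma protein, which then lets go of E2F transcription factors. Cyclins of the E type act with Cdk2 to complete that phosphorylation and start DNA synthesis. The product of Cdkn2c, p18, binds the D-type kinases directly, while that of Cdkn1b, p27, holds cyclin E complexes inactive. Adult hepatocytes rest outside the cycle and make cyclin D1 when they are called back into it, as after loss of liver tissue. Ccnd1 is also a known target of Hedgehog signalling in several tissues.

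Values are log2 signals, so a difference of 1 is a doubling. Array medians over 41345 probe sets ran from 4.32 to 4.40 and lower quartiles from 3.13 to 3.22. Hepatocyte markers averaged 11.70 to 11.74 in GFP livers and 11.64 to 11.76 in SHH livers, far above those medians. Signals of Shh itself ran from 3.43 to 3.86 in GFP livers and from 4.28 to 4.63 in SHH livers, which did not overlap. In bulk liver, fewer cells of a type and less RNA per cell cannot be told apart.

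Upstream sequences were read for the members held in a RefSeq table of build GRCm38.p6. It matched 6 of the 10 genes with 8 start sites: Ccnd3, Ccne1, Cdk4, Cdk6, Cdkn1b and Cdkn2c. The sequences printed are those of Ccne1 and Cdkn2c, the members with a table entry whose means differed most between the groups, and of Cdk6, whose means differed little. Each is the 250 bases before the start site, 5′ to 3′ along the gene's own strand. Capitals mark GGGCGG or its reverse complement, the core that Sp1-type factors bind. Ccne1 lies on the minus strand (chr7:38107491-38107740), Cdkn2c on the minus strand (chr4:109666757-109667006, the first of its 2 start sites) and Cdk6 on the plus strand (chr5:3343643-3343892).
Ccne1: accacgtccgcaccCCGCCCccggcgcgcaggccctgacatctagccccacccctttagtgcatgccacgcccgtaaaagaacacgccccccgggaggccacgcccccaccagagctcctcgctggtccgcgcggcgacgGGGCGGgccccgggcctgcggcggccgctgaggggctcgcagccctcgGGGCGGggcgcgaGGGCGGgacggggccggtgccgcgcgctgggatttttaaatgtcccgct
Cdkn2c: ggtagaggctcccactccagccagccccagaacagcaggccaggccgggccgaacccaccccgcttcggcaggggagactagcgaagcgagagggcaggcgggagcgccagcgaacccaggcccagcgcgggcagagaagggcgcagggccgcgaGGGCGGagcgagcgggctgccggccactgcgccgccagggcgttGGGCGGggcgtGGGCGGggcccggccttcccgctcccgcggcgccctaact
Cdk6: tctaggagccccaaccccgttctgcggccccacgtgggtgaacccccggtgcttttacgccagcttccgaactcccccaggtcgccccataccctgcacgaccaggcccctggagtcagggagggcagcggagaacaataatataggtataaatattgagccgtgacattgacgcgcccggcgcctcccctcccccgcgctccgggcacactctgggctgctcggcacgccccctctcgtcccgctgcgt

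Windows of 300 bases, these 250 and the 50 after the start, were searched on both strands, with overlapping matches counted. The Ccne1 window held GGGCGG 4 times, with left ends 236, 110, 62 and 49 bases before the start. The first Cdkn2c window held it 4 times as well, at 95, 51 and 40 bases before and at base 37 after the start. Members that differed less also held it: the Cdk4 window 3 times, each of the 2 Ccnd3 windows 2 times and the Cdkn1b window 1 time. The Cdk6 window and the second Cdkn2c window held none, so 6 of the 8 member windows had a match. Of all 32851 windows in the table, 35.7% held at least 1 match, so a match is common. An E2F motif (TTTCGCGC, TTTGGCGC, TTTCCCGC or TTTGCCGC) was in 0 of the 8 member windows and in 2.26% of all windows. The GLI motif GACCACCCA, bound by the factors at the end of the Hedgehog pathway, was in 0 of the 8 and in 0.253% of all windows. These letters may lie elsewhere in the genes. Ccnd1, Ccnd2, Ccne2 and Rb1 had no entry in the table, so no window of theirs was searched. Motifs this rare are seldom met in 8 windows, so 0 of 8 says little.

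Among the D-type cyclins, Ccnd1 stood higher in SHH livers and Ccnd2 and Ccnd3 did not. Ccnd1 encodes cyclin D1, the main D-type cyclin of hepatocytes. In GFP livers its log2 signal was 6.22 (mouse 13), 5.82 (mouse 21) and 6.46 (mouse 6). SHH livers gave 6.71 (mouse 26), 7.14 (mouse 28) and 7.96 (mouse 31). Every SHH liver lay above every GFP liver, narrowly for mouse 26 and widely for mouse 31. The means were 6.17 ± 0.324 (SD, n = 3) and 7.27 ± 0.636 (SD, n = 3), a difference of 1.10 or 2.15-fold, with a 95% interval of 0.43 to 1.78. Of the 22180 genes, 73 had a larger upward difference. Leaving out 1 mouse at a time gave 0.76 (without SHH 31) to 1.38 (without SHH 26).

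Ccnd2 encodes cyclin D2. It read 6.11, 5.95 and 6.02 in GFP livers and 5.78, 5.50 and 6.02 in SHH mice 26, 28 and 31. SHH 31 matched the GFP livers and SHH 28 was lowest, so the groups overlapped. The difference of the means was -0.26 (95% interval -0.61 to 0.09), and -0.13 without SHH 28.

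Ccnd3 encodes cyclin D3, the form common in blood cells. Its signals were 5.76, 6.14 and 5.71 in GFP livers and 5.79, 5.64 and 5.66 in SHH livers. The groups overlapped, and GFP 21 alone stood high. The difference of -0.18 (95% interval -0.51 to 0.16) came to -0.04 without that mouse.

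Within each array the gap between Ccnd1 and Ccnd2, taken relative to the mean gap in GFP livers, was 0.79, 1.50 and 1.80 for SHH mice 26, 28 and 31. The GFP livers gave -0.03, -0.27 and 0.30. The gap between Ccnd1 and Ccnd3 was 0.62, 1.21 and 2.01 in the SHH livers against -0.61 to 0.45 in the GFP livers. Both gaps were wider in every SHH liver than in any GFP liver. The mean gaps differed by 1.36 and 1.28 between the groups, where Ccnd1 alone differed by 1.10, so they largely restate the Ccnd1 values. A gap of this kind shows unequal change of the genes and does not compare their amounts.

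**Figure D1:**
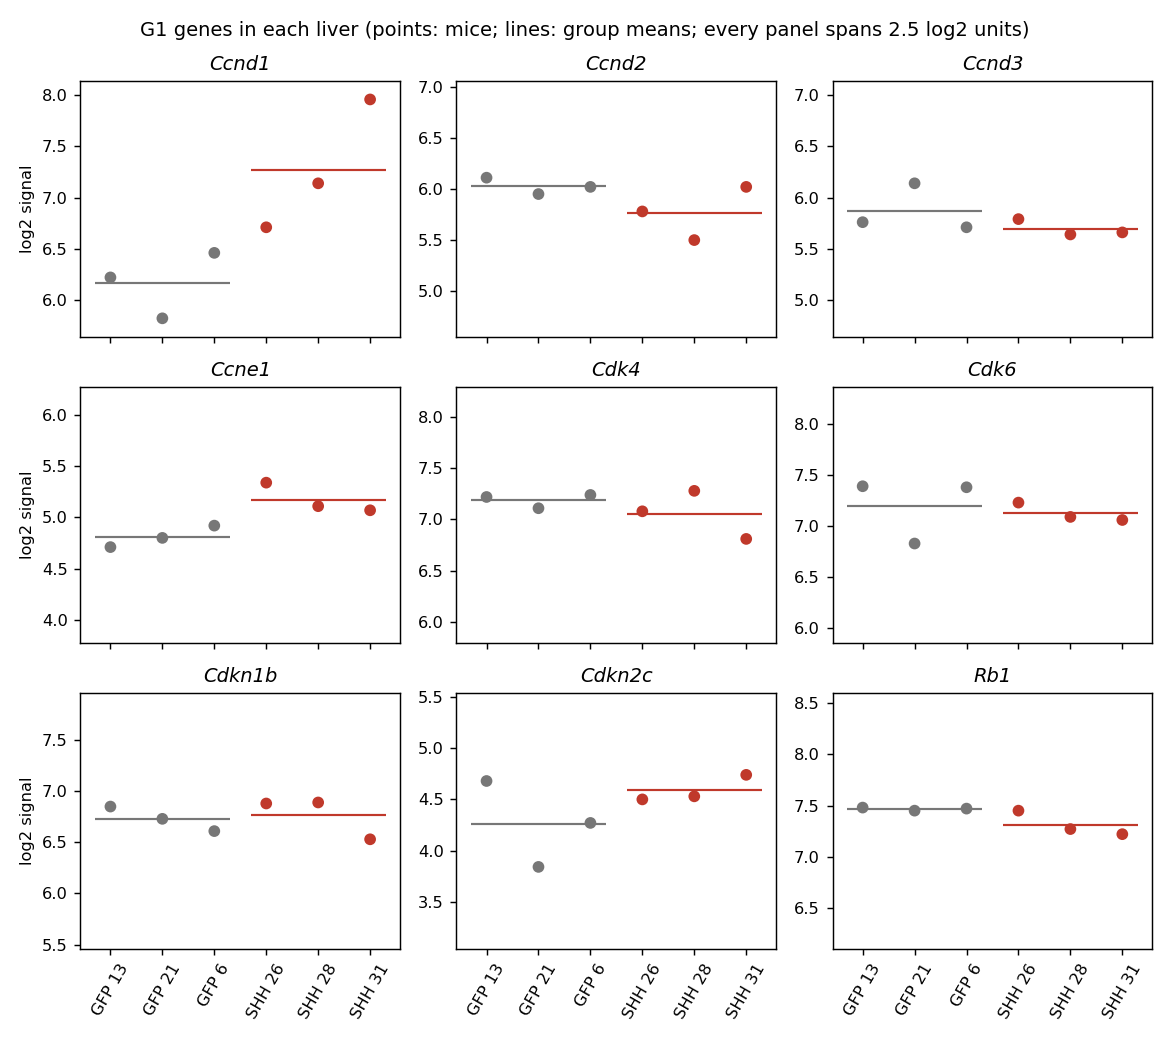
Log2 signal (vertical axis) of the 9 measured G1 genes in each liver (horizontal axis), GFP in grey and SHH in red, with lines at the group means. Ccnd1 climbs to 7.96 in SHH 31, while the Rb1 points of all 6 livers lie between 7.22 and 7.48.

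Ccne1 encodes cyclin E1, the partner of Cdk2 at the entry to DNA synthesis. GFP livers read 4.71, 4.80 and 4.92, while SHH mice 26, 28 and 31 read 5.34, 5.11 and 5.07. The groups did not overlap, and the order of the SHH mice was the reverse of that for Ccnd1, with mouse 26 highest. The means were 4.81 ± 0.105 and 5.17 ± 0.145 (SD, n = 3 each), a difference of 0.36 or 1.29-fold (95% interval 0.07 to 0.66). Leaving out single mice kept it between 0.28 and 0.42. This is a small change in a gene whose signal lay a little above the array medians, and 925 genes had a larger upward difference.

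The kinase genes differed little. Cdk4, the first partner of D-type cyclins, read 7.22, 7.11 and 7.24 in GFP livers and 7.08, 7.28 and 6.81 in SHH livers. SHH 31, which had the most Ccnd1 signal, had the lowest Cdk4 signal, and SHH 28 had the highest. The difference of -0.13 (95% interval -0.46 to 0.20) was -0.01 without SHH 31.

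Cdk6, the second D-type kinase, read 7.39, 6.83 and 7.38 in GFP livers and 7.23, 7.09 and 7.06 in SHH livers. All SHH values lay inside the GFP range, whose low end was GFP 21. The difference of -0.08 (95% interval -0.46 to 0.31) ran from -0.26 without GFP 21 to 0.02 without GFP 13, so its sign rested on which mice were counted.

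The inhibitor genes did not separate the groups either. Cdkn1b, which encodes p27, read 6.85, 6.73 and 6.61 in GFP livers and 6.88, 6.89 and 6.53 in SHH livers. SHH 26 and SHH 28 stood just above the GFP range and SHH 31 just below it. The difference was 0.04 (95% interval -0.29 to 0.37), and 0.16 without SHH 31 but -0.02 without GFP 6.

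Cdkn2c, which encodes p18, read 4.68, 3.84 and 4.27 in GFP livers and 4.50, 4.53 and 4.74 in SHH livers. The GFP livers spread over 0.84 and the SHH livers over 0.24, and GFP 13 lay above SHH 26 and SHH 28. The difference of 0.32 (95% interval -0.14 to 0.78) came to 0.11 without GFP 21 and 0.53 without GFP 13. In GFP 21 and GFP 6 this gene lay below the array median, where arrays tend to understate a change.

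Rb1 encodes the retinoblastoma protein, the target that the D-type and E-type kinases share. Its signals were 7.477, 7.450 and 7.475 in GFP livers and 7.448, 7.268 and 7.225 in SHH livers. The GFP livers were nearly equal and all SHH livers lay below them, SHH 26 by only the third decimal. The difference was -0.15 (95% interval -0.43 to 0.12), 1.11-fold lower. The second Rb1 probe set lay below the lower quartile of all 6 arrays and differed by -0.11.

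**Figure D2:**
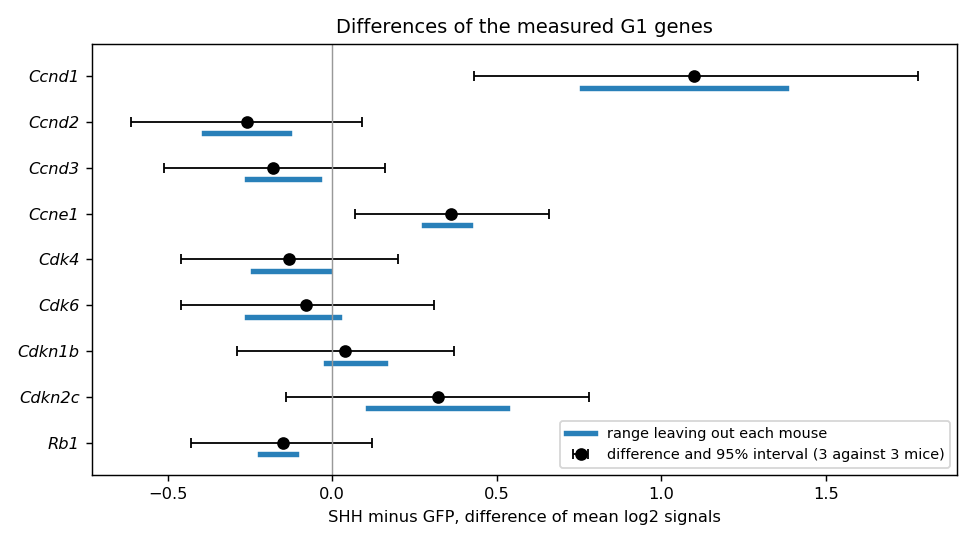
Difference of mean log2 signals, SHH minus GFP (horizontal axis), for each measured G1 gene, with its 95% interval in black and the range over fits that leave out 1 mouse in blue. Ccnd1 lies farthest to the right at 1.10 and Ccnd2 farthest to the left at -0.26. The intervals come from the limma fit over all genes and are no test of these genes.

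Counts over the 9 genes are set beside those over the whole array as a description. Of the 9, 4 had higher means in SHH livers (44.4%), against 43.8% of all genes, and their median difference was -0.08 against -0.03. SHH livers lay above all GFP livers for 2 members, Ccnd1 and Ccne1, 22.2% of the 9, where 5.26% of all genes did so. They lay below for 1 member, Rb1, where 7.25% of all genes did. Of the 9, 1 differed by more than 0.5 in either direction (Ccnd1, 11.1%), against 3.59% of all genes. Since the genes were chosen with these differences known, nothing is read from these shares. The limma fit with Benjamini-Hochberg adjustment called 0 of the 22180 genes at 0.05 (0% in either direction), members included. At an unadjusted p under 0.05 it held 738 higher genes (3.33%) and 889 lower genes (4.01%). No liver was at an end for all members: SHH 31 was highest for 2 of the 9 and lowest for 3, and GFP 21 was highest for 1 and lowest for 3.

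Other genes of the pathway were taken from 5 lists with 138 measured genes between them, none of them a member. By group means 78 were higher and 60 lower in SHH livers, where 43.8% of all genes were higher. In either direction 0 passed the adjusted threshold. At an unadjusted p under 0.05 in limma, 10 were higher and 3 lower, beside the 3.33% and 4.01% of all genes. The list medians of the difference ran from -0.02 to 0.17.

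**Figure D3:**
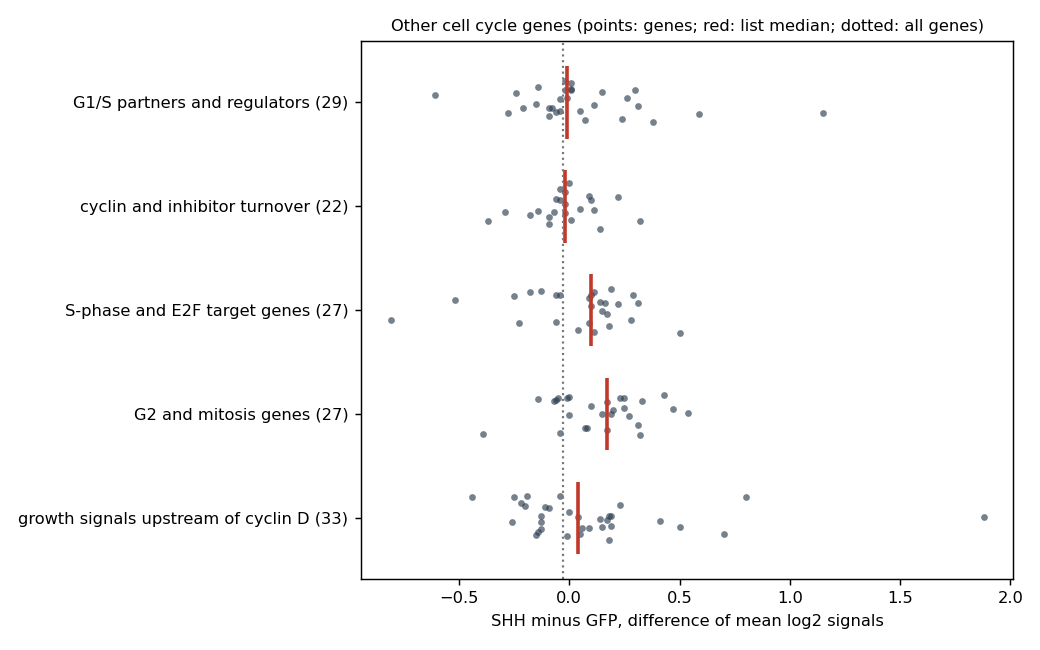
Difference of mean log2 signals, SHH minus GFP (horizontal axis), of each gene (points) in 5 lists of cell cycle genes, with the number measured in brackets, the list median in red and the median of all genes (-0.03) dotted. The points straddle 0 in each list, with Egr1 (1.88) and Cdkn1a (1.15) farthest to the right.

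Of 29 partners and regulators of the G1 step, 14 had higher and 15 lower means, 0 passed the adjusted threshold in limma (3 higher and 0 lower unadjusted) and the median was -0.01. Rbl1 encodes p107, a relative of the retinoblastoma protein. It read 4.49, 4.78 and 4.88 in GFP livers and 5.06, 5.26 and 5.58 in SHH livers, without overlap. It was 0.59 higher (95% interval 0.20 to 0.97; limma, adjusted p = 0.521). Like Ccnd1 it was highest in SHH 31.

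Cdkn1a encodes p21, an inhibitor of cyclin-dependent kinases that p53 and inflammatory signals induce. Its signals were 5.22, 4.82 and 5.63 in GFP livers and 5.54, 7.38 and 6.19 in SHH mice 26, 28 and 31. SHH 28 stood far above the rest, and SHH 26 lay inside the GFP range. The difference was 1.15 (95% interval 0.22 to 2.08; limma, adjusted p = 0.611). Cdc25a, a phosphatase that activates Cdk2, differed by 0.38 with overlap (adjusted p = 0.673 in limma).

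Cdk2, Cdkn2a (p16 and p19ARF) and E2f1 differed by -0.04, -0.02 and -0.09, each with overlap. The 8 E2F genes were divided, 4 higher and 4 lower, between -0.09 for E2f1 and 0.31 for E2f8. Of 22 genes for the turnover of cyclins and inhibitors, 9 had higher and 13 lower means, with a median of -0.02, and 0 passed in limma, adjusted or unadjusted. Fbxo4, a ubiquitin ligase subunit reported to act on cyclin D1, differed by 0.32. The deubiquitinase gene Usp28 differed by -0.29, and the kinase gene Dyrk1b by -0.18. Adjusted p in limma was 0.713, 0.765 and 0.835 for these 3.

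Of 27 genes of DNA synthesis, which E2F factors control, 18 had higher and 9 lower means, with a median of 0.10 and 0 past the threshold in limma (2 higher and 2 lower unadjusted). All 6 genes of the MCM2 to MCM7 helicase that opens DNA for replication had higher means in SHH livers, from 0.09 (Mcm2) to 0.50 (Mcm6); this group was formed after the values were seen. Mcm6 read 5.11, 4.84 and 5.13 in GFP livers and 5.23, 5.38 and 5.96 in SHH livers. It was highest in SHH 31 and did not overlap (limma, adjusted p = 0.649). Mcm4 differed by 0.31 without overlap (adjusted p = 0.663 in limma). Mcm10, a separate replication factor, went the other way, with 7.06, 7.44 and 7.41 against 7.12, 6.20 and 6.14. Its difference was -0.81 (limma, adjusted p = 0.552). Of the 27 genes, SHH livers lay above all GFP livers for 5 and below for 2, beside 5.26% and 7.25% of all genes. Those 2 were Tk1 (-0.52) and, by a narrow margin, Cdc45 (-0.23), with adjusted p = 0.673 and 0.761 in limma.

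Of 27 genes of G2 and mitosis, 19 had higher and 8 lower means, with a median of 0.17 and 0 past the threshold in limma (2 higher and 0 lower unadjusted). Signals of this list were weak, with a mean level of 3.94 to 4.03 in GFP livers and 3.95 to 4.44 in SHH livers. The array medians were 4.32 to 4.40, and 2 of the 27 genes lay below the lower quartile on all 6 arrays. The list mean relative to GFP livers was -0.03, -0.01 and 0.46 in SHH mice 26, 28 and 31, and -0.04 to 0.05 in the GFP livers. Only SHH 31, the mouse with the most Ccnd1 signal, stood apart, and without it the list median was -0.05. Mki67, which encodes the proliferation marker Ki-67, was 5.82 in SHH 31, 4.65 and 4.76 in SHH mice 26 and 28, and 4.57, 4.12 and 4.94 in GFP livers. Top2a, the topoisomerase of dividing cells, was 4.11 in SHH 31 and 3.02 to 3.78 in the other livers, all below the array medians. The spindle checkpoint gene Mad2l1 differed by 0.33 and the mitotic kinase gene Plk1 by 0.47. Adjusted p in limma was 0.776, 0.733, 0.642 and 0.656 for these 4 genes.

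Of 33 genes for growth signals upstream of cyclin D, activators and inhibitors together, 18 had higher and 15 lower means. The median was 0.04, and 0 were past the threshold in limma (3 higher and 1 lower unadjusted). Since the list mixes both kinds, these counts give no direction of growth signalling. Egr1, an immediate early transcription factor, read 5.29, 5.18 and 5.53 in GFP livers and 6.75, 8.33 and 6.57 in SHH mice 26, 28 and 31. It was higher in every SHH liver, by 1.88 (95% interval 0.98 to 2.78; limma, adjusted p = 0.409), and its peak was in SHH 28 and not in SHH 31. Fos, a subunit of AP-1, read 4.38, 4.57 and 4.54 in GFP livers and 4.67, 5.67 and 5.56 in SHH mice 26, 28 and 31. It differed by 0.80 (adjusted p = 0.530 in limma). Without SHH 26, the SHH liver nearest to the GFP livers, Fos differed by 1.12 and passed (limma, adjusted p = 0.0362). In that fit 46 genes passed, and in no other fit that left out 1 mouse did Fos pass. Stat3, the mediator of interleukin-6 signals, differed by 0.70 without overlap (limma, adjusted p = 0.556). Myc read 6.02, 5.55 and 6.55 in GFP livers and 6.63, 6.44 and 6.54 in SHH livers, a difference of 0.50 with overlap (limma, adjusted p = 0.692).

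The 5 genes whose profile over the 6 livers was nearest to that of Ccnd1 were Ptprc, Selplg, Pla2g7, Cd163 and Klra2. Likeness was the mean absolute distance between log2 signals centred on each gene's own mean, over 6 arrays. Ptprc, which encodes the leukocyte phosphatase CD45, was nearest at 0.0842. It read 6.13, 5.99 and 6.51 in GFP livers and 6.72, 7.02 and 8.03 in SHH livers, and thus had the same order of mice as Ccnd1. Selplg, the selectin ligand of leukocytes, came next at 0.0957. Pla2g7, a phospholipase of macrophages, followed at 0.0973, then the macrophage scavenger receptor gene Cd163 at 0.128 and the lectin receptor gene Klra2 at 0.161. Klra2 belongs to a family of close relatives that can share signal. The mean differences of these 5 genes lay between 0.84 and 1.18, beside 1.10 for Ccnd1. They were selected on their likeness, so their differences say nothing further, and no share of immune genes among other genes was tested.

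**Figure D4:**
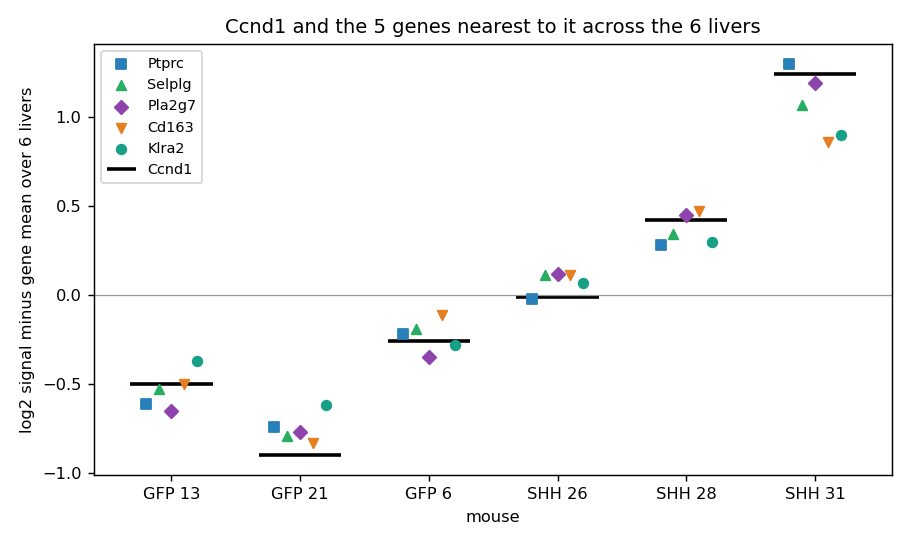
Log2 signal minus each gene's mean over the 6 livers (vertical axis) in each mouse (horizontal axis), for Ccnd1 (black bars) and the 5 genes nearest to it (coloured points). All 6 genes are lowest in GFP 21 and highest in SHH 31, where Ccnd1 reaches 1.24 and Ptprc 1.30.

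Most leukocyte markers had higher means in SHH livers, where 43.8% of all genes did. Their order over single livers was not always that of Ccnd1. Of 12 Kupffer cell and macrophage markers, 12 had higher means in SHH livers. Their mean level was 6.51 to 7.32 in GFP livers and 7.12 to 8.07 in SHH livers, and relative to GFP livers it was 0.34, 0.47 and 1.29 in SHH mice 26, 28 and 31. GFP 6, the GFP liver with the most Ccnd1 signal, stood at 0.53, above SHH 26 and SHH 28. Of 9 monocyte and dendritic cell markers, 8 had higher means, with levels of 4.99 to 5.26 against 5.53 to 6.30. All 10 neutrophil markers had higher means (3.51 to 3.74 against 3.82 to 4.80), as did 9 of 10 T and NK cell markers (3.89 to 4.08 against 4.09 to 4.75) and 7 of 8 B and plasma cell markers (4.35 to 4.48 against 4.55 to 5.06). Relative to GFP livers, monocyte and dendritic cell markers stood at 0.38, 0.42 and 1.15 in SHH mice 26, 28 and 31, with the same order of all 6 livers as Ccnd1. Neutrophil markers stood at 0.16, 1.15 and 1.05, so their peak was in SHH 28. T and NK cell markers stood at 0.37, 0.12 and 0.77, beside 0.10 in GFP 21, the liver with the least Ccnd1 signal. B and plasma cell markers stood at 0.12, 0.50 and 0.63. The median differences of the 5 lists, in the order given, were 0.65, 0.63, 0.58, 0.44 and 0.09. None of these markers was below the lower quartile on all 6 arrays. In GFP livers the neutrophil and the T and NK cell lists averaged below the array medians, so their signals were weak. Of the neutrophil markers, Camp and Ly6g lay below the lower quartile on 4 of the 6 arrays and S100a8 on 3. The part of leukocytes in the Ccnd1 difference was not tested.

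Markers of the liver's own cells were mixed. The 11 measured hepatocyte markers had a median difference of 0.01, and their mean in SHH 31 was -0.08 relative to GFP livers. The 8 bile duct and progenitor markers had a median of -0.02, with 1 of them below the lower quartile on every array. Of 12 stellate cell and myofibroblast markers, 11 had higher means (6.28 to 6.34 against 6.36 to 6.57), with a median of 0.13. The 1 with a lower mean was the myofibroblast marker Acta2, at -0.33 with overlap. Of 10 endothelial markers 9 had lower means (6.52 to 6.97 against 6.16 to 6.83), with a median of -0.17 and a list mean of -0.58 in SHH 28. The 3 measured markers of red cell precursors had a median of -0.15. In limma 0 of the 93 markers of all lists passed the adjusted threshold. Unadjusted, 23 higher and 1 lower had p under 0.05, beside 3.33% and 4.01% of all genes.

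**Figure D5:**
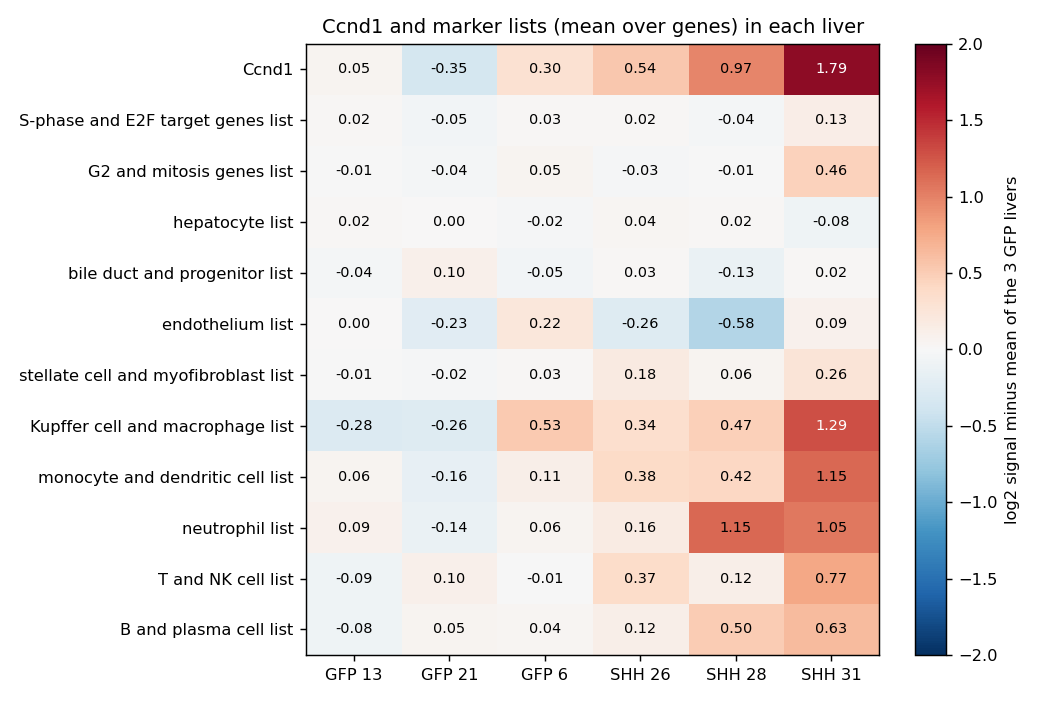
Log2 signal minus the mean of the 3 GFP livers, printed and coloured, for Ccnd1 and for list means (rows) in each liver (columns). The lists are the DNA synthesis genes, the G2 and mitosis genes and all marker lists except red cell precursors. SHH 31 holds the highest value of Ccnd1 (1.79), of macrophage markers (1.29) and of G2 and mitosis genes (0.46).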

How the data were processed

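Livers of 6 mice were profiled, 3 per group, 1 array each. The authors deposited log2 signals per probe set, made with RMA (background correction, equal array distributions, probe summary) per the submitters' processing notes. The RMA version is not given in the sources used here. Genes were named from platform annotation; each gene took its brightest probe set, by mean over the arrays, among those naming no other gene. The groups were compared in R 4.3.3 by limma 3.58.1 (lmFit and eBayes, two-sided; Benjamini-Hochberg over 22180 genes, threshold 0.05), with no covariate or filter. Intervals are 95% intervals of that fit. An exact permutation test of 3 against 3 mice cannot go below p = 0.1. The labels give separate mice but no batch, litter or day, and the number of arrays limits the precision.

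The 10 genes and all lists were chosen with earlier results of these data known. Named were all members, the 3 smallest p values of each list and the 5 profiles nearest to Ccnd1, leaving out predicted genes. Also named were Mki67, Top2a, Cdkn1a, Cdkn2a, Cdk2, E2f1, Myc and Shh. E2f8, Mcm2, Tk1, Cdc45 and Acta2 were named after their values were seen. Lists were described by counts and medians, with no set test. The fit was tested on simulated data. Alternatives were other probe set rules, a level filter, 2 scalings, other priors, array weights, a threshold of 0.1 and each mouse left out.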

Additional observations from a re-analysis of the deposited data

How the results depend on the processing

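All 9 G1 gene differences moved by less than the spread between replicates (1 SD) under every alternative in which they were measured. With 3 mice per group, leaving out 1 mouse cannot move a difference by that much, so those fits could not come out otherwise. Probe set rules could change Rb1 only, the member with more than 1 probe set of its own. Ccnd1 ran from 0.76 to 1.38 without single mice. The count of 4 with higher means was 3 with only genes above the median level, which left out Cdkn2c. It was 3 to 5 without single mice and 4 in the other settings. Cdk6 and Cdkn1b changed sign without some mice, as given with their values. The median of all genes stayed between -0.03 and -0.01. The number of genes past the threshold was 0 in each setting, except 46 (30 higher, 16 lower, 0 of them G1 genes) without SHH 26, so the range was 0 to 46. Among growth signal genes the number was 0 to 1, the 1 being Fos without SHH 26. Leaving out single mice gave median differences of 0.03 (without SHH 31) to 0.17 (without SHH 28) for DNA synthesis genes, -0.04 (without GFP 21) to 0.06 (without GFP 13, GFP 6 or SHH 26) for growth signal genes and -0.05 (without SHH 31) to 0.25 (without SHH 26) for mitosis genes. With only genes above the median level, the mitosis median was 0.43, over 2 genes in place of 27. No paired analysis was possible because the groups share no mouse numbers. Top2a lay below every array median, where arrays tend to understate a change.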
